A study of Saccharomyces cerevisiae with 21 samples.

Results

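The strains compared here are BY4741ΔP (written ΔP) and Tpho84-Tcyc1, taken directly against each other across all genes. They were chosen by their names in the table as the high and low PHO84 strains of the first series, 3 libraries each, and together they make 6 of the 21 RNA sequencing libraries of the study. The study sequenced mRNA from the budding yeast Saccharomyces cerevisiae, and its title concerns transcription, both coding and non-coding, at genes of phosphate metabolism. Both strains derive from BY4741, a haploid MATa laboratory strain that lacks the marker genes URA3, LEU2 and MET17 and part of HIS3. The second name joins PHO84 and CYC1, but the labels do not say what ΔP and Tpho84-Tcyc1 alter, nor whether each strain was 1 clone. Cultures of both grew at 30 °C in synthetic medium with 7.2 mM phosphate and 50 mM KCl, and were frozen at an absorbance of 0.5 after starting at 0.1. The cultures of a strain were inoculated from a single overnight culture, so a p-value measures the spread between such sister cultures and not between separately made strains.

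The PHO pathway of yeast matches phosphate uptake and storage to supply. When phosphate is scarce, the inhibitor Pho81 holds the cyclin-kinase pair Pho80-Pho85 in check, and the transcription factor Pho4 enters the nucleus and, with Pho2, activates its target genes. The targets include the high-affinity transporter gene PHO84, secreted acid phosphatases, the vacuolar complex that makes polyphosphate, and SPL2, whose product down-regulates low-affinity phosphate uptake. PHO84 is also known as a gene with antisense transcription.

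The ΔP libraries held 10.98, 19.4 and 15.3 Mreads (megareads) and the Tpho84-Tcyc1 libraries 49.5, 19.0 and 22.8 Mreads. Values are reads per Mread (RPM) as deposited, and 3 reads, a floor for counting error only, stood for 0.0605 to 0.273 RPM. Differences are ΔP minus Tpho84-Tcyc1 on the log2(RPM + 1) scale, which understates the change of genes near or below 1 RPM, and a gene was called at a Benjamini-Hochberg adjusted p under 0.05 from limma. Of 5735 genes tested, 12 were called higher in ΔP (0.209%) and 2 lower (0.0349%), and 373 had an unadjusted p under 0.05, 190 of them higher (3.31%) and 183 lower (3.19%). The groups did not overlap for 261 genes higher in ΔP (4.55%) and for 442 lower (7.71%). PHO84, which chose the strains, is in each of these counts of genes higher in ΔP. The median difference over all genes was -0.00155.

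The ΔP libraries differed from each other more than the Tpho84-Tcyc1 libraries did. In ΔP 1, 2 and 3, 239, 327 and 162 genes lay over 1.5-fold from the mean of the other libraries of the strain, against 15, 35 and 23 genes in Tpho84-Tcyc1 1, 2 and 3. Without ΔP 2, 218 genes were called higher (3.8%) and 118 lower (2.06%), and all 14 genes called with it were called again. The MATa genes STE2 (534 ± 14.4 RPM in ΔP and 611 ± 29.8 in Tpho84-Tcyc1, SD, n = 3), STE6 and BAR1 were read in all 6 libraries, and the alpha-factor genes MF(ALPHA)1 and MF(ALPHA)2 stayed below 1 RPM. The other 2 listed alpha-specific genes, STE3 and SAG1, were read at levels high enough to test, and 0 were called. All 4 together summed to 28.5, 29.5 and 37.4 RPM in ΔP and 30.2, 32.0 and 34.5 in Tpho84-Tcyc1. URA3, LEU2 and MET17 had 0 reads in each of the 21 libraries. HIS3 was read at 108.5 to 137 RPM in the 6.

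**Figure D1:**
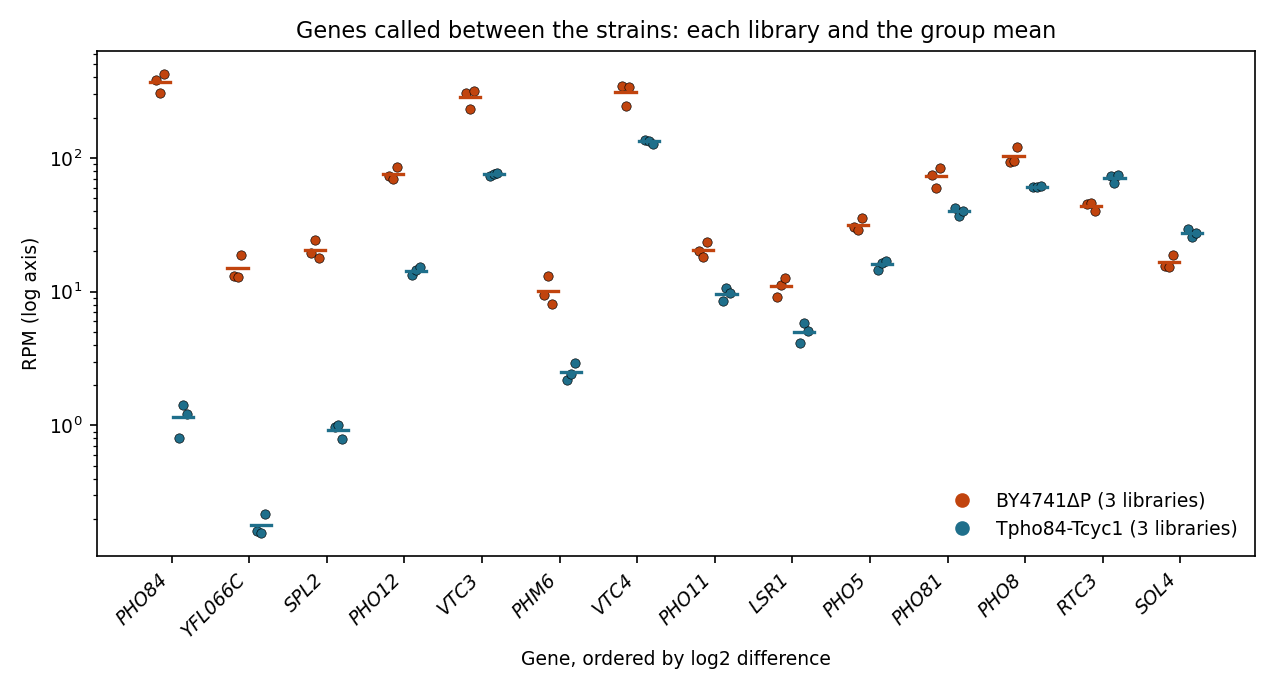
RPM on a log axis of the 14 called genes, ordered by their log2 difference. Points are single libraries of ΔP and Tpho84-Tcyc1 and bars are the group means. PHO84 separates the strains most, and the 2 genes lower in ΔP, RTC3 and SOL4, stand at the right.

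**Figure D2:**
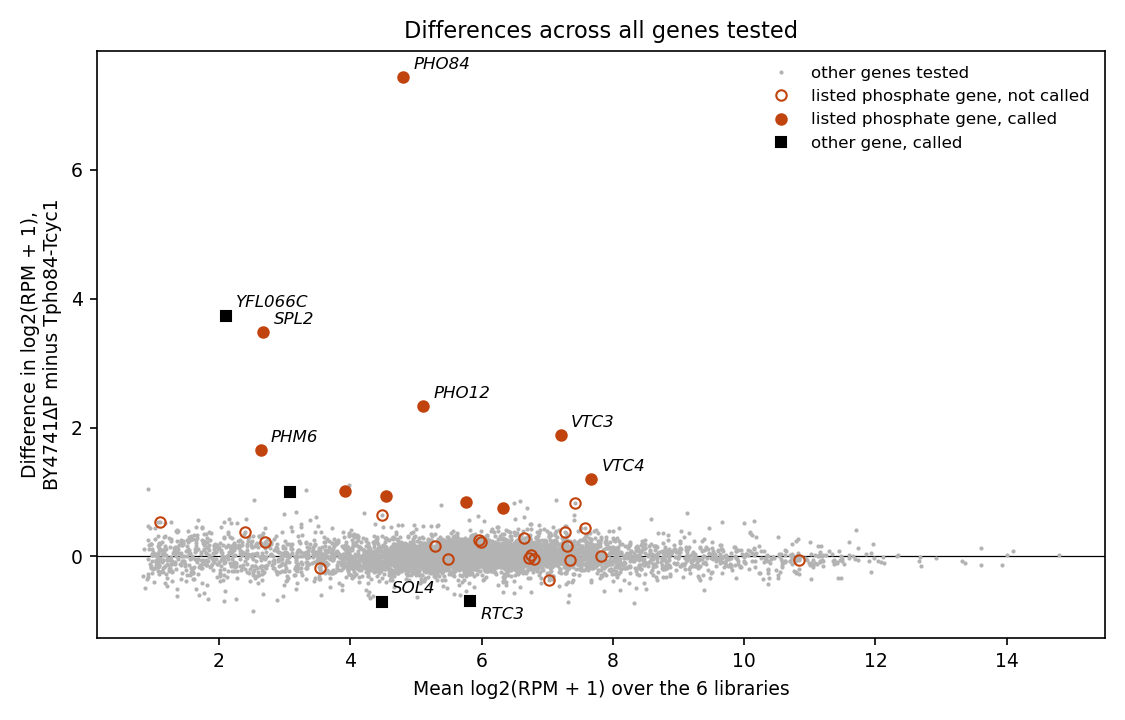
Difference in log2(RPM + 1), ΔP minus Tpho84-Tcyc1, against the mean log2(RPM + 1) of the 6 libraries for the 5735 genes tested. Called genes are marked, and the other genes lie around the median difference of -0.00155.

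PHO84, the gene that also chose the strains, was read at 381, 306 and 427 RPM in ΔP and at 0.807, 1.42 and 1.23 RPM in Tpho84-Tcyc1, where these were 40, 27 and 28 reads. Every ΔP library thus lay far above every Tpho84-Tcyc1 library. The ratio of the group means was 322 and the log2 difference 7.43 (95% interval 7.10 to 7.76), which checks the labels and is no finding of the comparison. PHO84 (YML123C) lies at chrXIII:24037-25800 in the reference build R64. Of its 8 listed neighbours, 7 were tested and 0 were called. TUB3, an alpha-tubulin gene on one side, was read at 249 ± 9.27 RPM in ΔP and 242 ± 4.15 in Tpho84-Tcyc1 (SD, n = 3), and GTR1, a GTPase gene on the other side, at 76.7 ± 6.74 and 76.6 ± 4.09. YML122C, an open reading frame just before the PHO84 start, had 3, 17 and 21 reads in ΔP and 48, 14 and 25 in Tpho84-Tcyc1 and was too low to test. The strand setting of the counting is not given in the sources used here, so sense and antisense reads of PHO84 cannot be told apart.

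Pho4 binds the hexamer CACGTG and, more weakly, CACGTT, and stretches with these letters are shown for the genes that the results turn on. Reference sequence of build R64 (RefSeq) is printed on the gene's own strand, 30 bases each, with the hexamer in capitals. The stretches stand for the reference strain and not for the sequenced cultures.
PHO84: atttaatagttcCACGTGgacgtgttattt
PHO84: tgttatttccagCACGTGgggcggaaatta
SPL2: agtatttttgctCACGTGaccgacaagggt
PHO5: ccttggcactcaCACGTGggactagcacag
PHO11: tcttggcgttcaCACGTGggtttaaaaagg
PHO12: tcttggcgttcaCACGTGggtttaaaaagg
VTC3: tgtgcgagggccCACGTGgcttaatacaac
VTC4: attattcatccgCACGTGgctgcacacgtg
PHM6: gagcttcgctgaCACGTGggaggtgggata
The PHO84 stretches lie at chrXIII:26219-26248 and chrXIII:26197-26226 on the minus strand, with the motif starting 436 and 414 bases before the coding start. The SPL2 stretch, at chrVIII:375444-375473 (minus), is the farthest of its 4 copies from the start. The PHO5 stretch lies at chrII:431187-431216 (minus), and the PHO11 and PHO12 stretches, which are identical, lie at chrI:225165-225194 and chrVIII:551804-551833 (plus). The VTC3, VTC4 and PHM6 stretches lie at chrXVI:517346-517375, chrX:413507-413536 and chrIV:1022583-1022612 (all minus), and the VTC4 stretch ends in its second copy, at chrX:413495-413524.

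Both hexamers were searched on both strands in the 600 bases before each coding start, where they cannot overlap one another. CACGTG was found in 7.28% of the 5552 tested genes with such a window, CACGTT in 18.8% and either in 24.5%. Among 31 listed phosphate genes, all 10 that were called held CACGTG and 8 held both hexamers, against 1.57% of all genes with both. PHO84, which chose the strains, is counted in the 10 and in the 8. Of the 21 that were not called, 10 held CACGTG (47.6%) and 14 held either (66.7%). The list was written from knowledge of Pho4 targets, so the shares are not independent of the motif. VTC3 and the divergent gene CTF19 share their upstream region and its sites. YFL066C, RTC3 and SOL4, called but not listed as phosphate genes, held neither hexamer in this window.

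Of the 31 listed phosphate genes, 10 were higher in ΔP (9 beside PHO84) and 0 lower, where 0.209% of all genes were called higher. PHO84, which chose the strains, is also in each count of higher genes that follows. The median difference of the 31 was 0.38, 24 differences were positive and 7 negative. An unadjusted p under 0.05 was reached by 19 genes higher in ΔP (all genes 3.31%) and by PHO3 as the lower one (all genes 3.19%). Groups were apart without overlap for 18 genes higher in ΔP, where 4.55% of all genes were, and for 2 lower, a share of 6.45% near the 7.71% of all genes. Without ΔP 2, 14 were called higher and 1 lower, where 3.8% and 2.06% of all genes were, the added ones being VTC1, VTC2, CTF19 and VIP1, and PHO3 as the lower one.

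Among the 5 listed transport genes and their regulators, PHO84 and SPL2 were called higher, where 0.209% of all genes were. SPL2 (YHR136C, chrVIII:374654-375100) was read at 19.4, 24.3 and 17.9 RPM in ΔP and at 0.969, 0.999 and 0.789 in Tpho84-Tcyc1. It thus passed the filter for testing, 1 RPM in 3 libraries, only through ΔP. The groups stood well apart, with ΔP 2 the highest library. The ratio of means was 22.4 and the log2 difference 3.48 (SE 0.15, adjusted p = 1.35e-06, limma). PHO89, the sodium-phosphate cotransporter gene, was read at 1.55, 1.54 and 1.63 RPM in ΔP and 0.767, 0.841 and 0.745 in Tpho84-Tcyc1. Like SPL2, it passed the filter only through ΔP. Its groups did not overlap, but the log2 difference of 0.53 (SE 0.18) did not pass the test (adjusted p = 0.551, limma). GIT1, the glycerophosphoinositol transporter gene, differed by 0.38 (SE 0.17), and PHO86, needed for the exit of Pho84 from the endoplasmic reticulum, by 0.29 (SE 0.10), and neither was called.

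Of the 8 listed phosphatase genes, 4 were called higher in ΔP, where 0.209% of all genes were. PHO12 (YHR215W, chrVIII:552099-553502), a repressible acid phosphatase gene, was read at 73.3, 70.0 and 85.9 RPM in ΔP and 13.2, 14.4 and 15.4 in Tpho84-Tcyc1. The lowest ΔP library lay far above the highest Tpho84-Tcyc1 library, and the log2 difference was 2.33 (SE 0.11, adjusted p = 1.61e-06, limma). Its close copy PHO11 (YAR071W, chrI:225460-226863) was read at 20.1, 18.1 and 23.5 RPM against 8.58, 10.6 and 9.81. These did not overlap, and the log2 difference was 1.02 (SE 0.13, adjusted p = 0.00825, limma), with the call lost without ΔP 3, Tpho84-Tcyc1 1 or Tpho84-Tcyc1 3. PHO11 and PHO12 are nearly identical, so reads may have been split or lost between them and their separate levels are uncertain. PHO5 (YBR093C, chrII:429548-430951), the main repressible acid phosphatase, was read at 30.5, 28.9 and 35.3 RPM in ΔP and 14.6, 16.4 and 16.9 in Tpho84-Tcyc1. All ΔP libraries lay above all Tpho84-Tcyc1 libraries, and the log2 difference was 0.94 (SE 0.11, adjusted p = 0.00547, limma).

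PHO8 (YDR481C), the vacuolar alkaline phosphatase gene, was read at 93.9, 95.3 and 121 RPM in ΔP and 60.2, 60.9 and 61.3 in Tpho84-Tcyc1. Its groups did not overlap, and the log2 difference was 0.74 (SE 0.11, adjusted p = 0.032, limma), a call that was lost without ΔP 3 or any Tpho84-Tcyc1 library. PHO3 (YBR092C), the constitutive acid phosphatase gene next to PHO5, was read at 115, 119 and 110 RPM in ΔP and 159, 152 and 133 in Tpho84-Tcyc1. Here the ΔP libraries were the lower ones without overlap, but the difference of -0.36 (SE 0.10) was not called (adjusted p = 0.457, limma). PHM8, DIA3 and PHO13 differed by -0.04, 0.23 and -0.05 and were not called.

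The vacuolar transporter chaperone (VTC) complex makes polyphosphate. Of the 9 listed polyphosphate genes 2, VTC3 and VTC4, were called higher in ΔP, where 0.209% of all genes were. VTC3 (YPL019C, chrXVI:514511-517018), a regulatory subunit, was read at 305, 234 and 315 RPM in ΔP and 73.9, 76.1 and 77.6 in Tpho84-Tcyc1. ΔP 2 was the lowest of its group and still far above Tpho84-Tcyc1, with a log2 difference of 1.88 (SE 0.12, adjusted p = 3.07e-05, limma). VTC4 (YJL012C, chrX:411234-413399), the polymerase subunit, was read at 346, 246 and 340 RPM against 137, 134 and 128. ΔP 2 was again lowest, and the log2 difference was 1.20 (SE 0.14, adjusted p = 0.00354, limma).

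VTC1, the small membrane subunit, was read at 198, 292 and 209 RPM in ΔP and 119, 127 and 139 in Tpho84-Tcyc1. Here ΔP 2 was the highest library and the strains did not overlap, but the log2 difference of 0.84 (SE 0.15) stayed above the threshold (adjusted p = 0.0678, limma). VTC2, the other regulatory subunit, was read at 241, 197 and 230 RPM against 160, 164 and 165, again without overlap, and its difference of 0.44 (SE 0.11) was not called (adjusted p = 0.298, limma). VTC5 differed by -0.02 (95% interval -0.22 to 0.18), the polyphosphatase genes PPN1, PPN2 and PPX1 by 0.17, 0.23 and -0.04, and DDP1, which cleaves diphosphoinositol phosphates and polyphosphate, by 0.25. Per kilobase of coding length, the levels in ΔP were 598 ± 132 RPM for VTC1, 143 ± 25.9 for VTC4, 113 ± 17.6 for VTC3, 89.6 ± 9.35 for VTC2 and 39.8 ± 1.71 for VTC5 (SD, n = 3). In Tpho84-Tcyc1 they were 329 ± 24.96, 61.4 ± 2.08, 30.3 ± 0.745, 65.6 ± 1.15 and 40.3 ± 1.23, so that VTC3 stood above VTC2 within each ΔP library, although the ranges of the libraries overlapped, and below it in Tpho84-Tcyc1.

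Of the 9 other listed targets, PHM6 and PHO81 were called higher in ΔP, where 0.209% of all genes were. PHM6 (YDR281C, chrIV:1022007-1022321), a gene of unknown function induced by low phosphate, was read at 9.38, 13.1 and 8.09 RPM in ΔP and 2.20, 2.42 and 2.94 in Tpho84-Tcyc1. All ΔP libraries were the higher ones, and the log2 difference was 1.65 (SE 0.18, adjusted p = 0.00332, limma). PHO81 (YGR233C, chrVII:954674-958210), which encodes the inhibitor of Pho80-Pho85, was read at 74.3, 59.3 and 84.4 RPM against 42.4, 36.9 and 40.0. ΔP 2 was the lowest ΔP library and above all of Tpho84-Tcyc1, with a log2 difference of 0.84 (SE 0.13, adjusted p = 0.0357, limma), and the call held in only 1 of 6 omissions of a library, that of ΔP 2. CTF19, a kinetochore gene transcribed away from VTC3, was read at 29.0, 24.8 and 27.0 RPM against 16.6, 19.1 and 15.3, without overlap; its difference of 0.64 (SE 0.11) was not called (adjusted p = 0.0761, limma). VIP1 and KCS1, which make inositol pyrophosphates, differed by 0.38 and 0.02, GDE1, a glycerophosphodiesterase gene, by 0.16, the glycerol phosphatase genes GPP1 and GPP2 by -0.05 and 0.00, and PHM7 by -0.18, and none of these was called.

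The 18 signalling and low-affinity transport genes held 0 called genes in either direction, with a median difference of 0.06 and a range of -0.16 to 0.25. PHO4 was read at 85.9, 70.0 and 123 RPM in ΔP and 79.6, 73.7 and 82.3 in Tpho84-Tcyc1, and the groups overlapped (difference 0.20, SE 0.17, adjusted p = 0.857, limma). PHO87, a low-affinity transporter gene, differed by 0.18 (SE 0.10) without overlap and was not called. UME6, a regulator of meiotic genes that other mutants of the study lack, was read at 71.7, 56.3 and 77.8 RPM against 62.9, 63.8 and 62.5 and differed by 0.11 (SE 0.12, adjusted p = 0.889, limma).

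**Figure D3:**
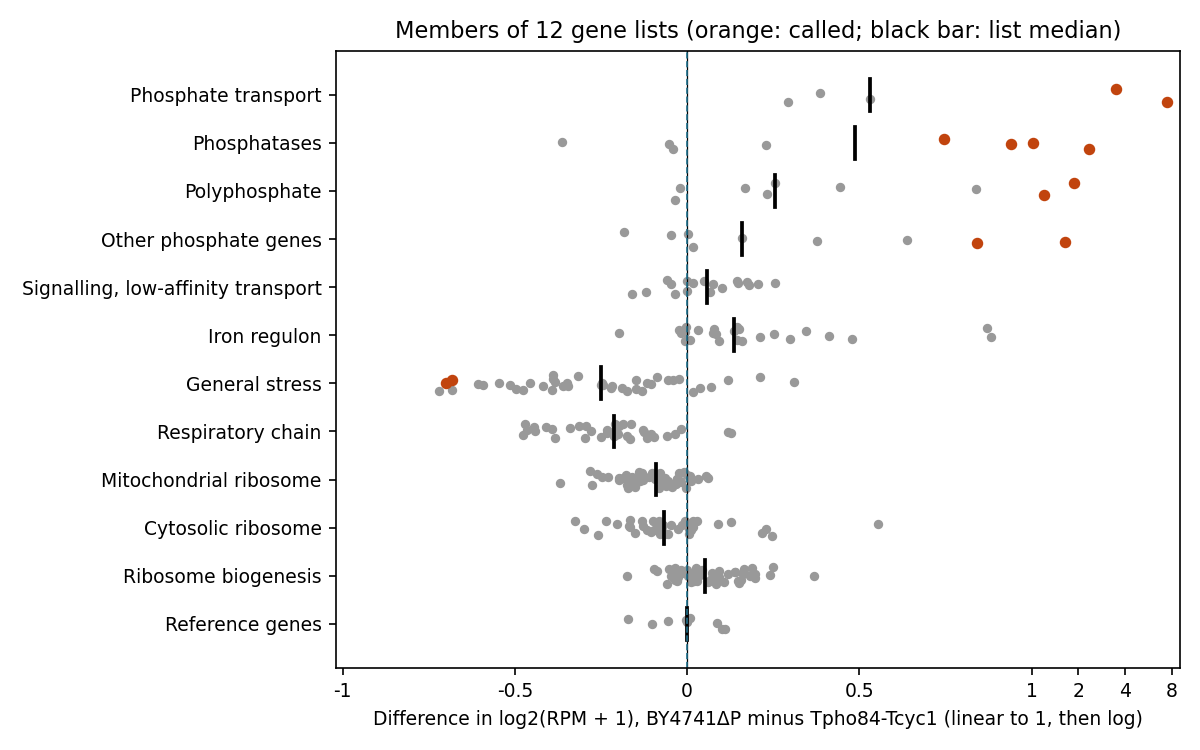
Difference in log2(RPM + 1), ΔP minus Tpho84-Tcyc1, of the members of 12 gene lists, on an axis that is linear to 1 and logarithmic beyond. Points are genes, called ones in orange, black bars are list medians and the dashed line is the median of all genes. The called genes of the phosphate lists lie to the right, and most members of the respiratory chain and general stress lists lie to the left of the dashed line.

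Outside the phosphate lists, YFL066C and LSR1 were called higher in ΔP. YFL066C (chrVI:1437-2615) is a helicase-like open reading frame of a telomeric Y-prime element at the left end of chromosome VI. It was read at 13.1, 12.9 and 18.7 RPM in ΔP (144, 251 and 287 reads) and at 0.161, 0.158 and 0.219 RPM in Tpho84-Tcyc1 (8, 3 and 5 reads). The groups stood far apart, with a log2(RPM + 1) difference of 3.74 (SE 0.18, adjusted p = 1.61e-06, limma). The next open reading frames inward were low too: YFL065C (chrVI:3030-3338) had 16, 26 and 14 reads in ΔP and 2, 0 and 1 in Tpho84-Tcyc1 and was not tested. YFL064C (chrVI:3322-3846) was read at 1.64, 1.44 and 2.09 RPM against 0.323, 0.263 and 0.351, without overlap, and was not called (difference 1.05, SE 0.20, adjusted p = 0.111, limma). YFL066C and YFL064C stayed below 1 RPM in Tpho84-Tcyc1 and passed the filter for testing only through ΔP.

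The other 18 libraries of the study all lay above the highest Tpho84-Tcyc1 library in these 3 reading frames, at 1.54 to 26.0 RPM for YFL066C, 0.281 to 2.89 for YFL065C and 0.386 to 4.56 for YFL064C. For YFL064C the gap was small, with 13 reads in BY4741 1 (0.386 RPM) and 8 in Tpho84-Tcyc1 3 (0.351 RPM). BY4741 1 was also the lowest of these 18 at YFL066C, at 1.54 RPM against 11.6 and 5.56 in BY4741 2 and 3. Y-prime elements are repeated at many chromosome ends, so these reads may have been shared between copies and the levels are uncertain. Read counts of RNA cannot tell lower transcription from a change in the DNA of this chromosome end, which was not tested. Of the longer Y-prime helicase genes, YRF1-4 was read at 91.1, 49.7 and 71.9 RPM in ΔP and 62.8, 62.4 and 55.7 in Tpho84-Tcyc1, and YRF1-5 at 63.5, 40.6 and 69.1 against 56.0, 50.1 and 42.9. These overlapped between the strains and were not called. COS4 (chrVI:6426-7565), farther in on the same arm, had 6, 10 and 11 reads in ΔP and 23, 8 and 14 in Tpho84-Tcyc1 and was too low to test.

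**Figure D4:**
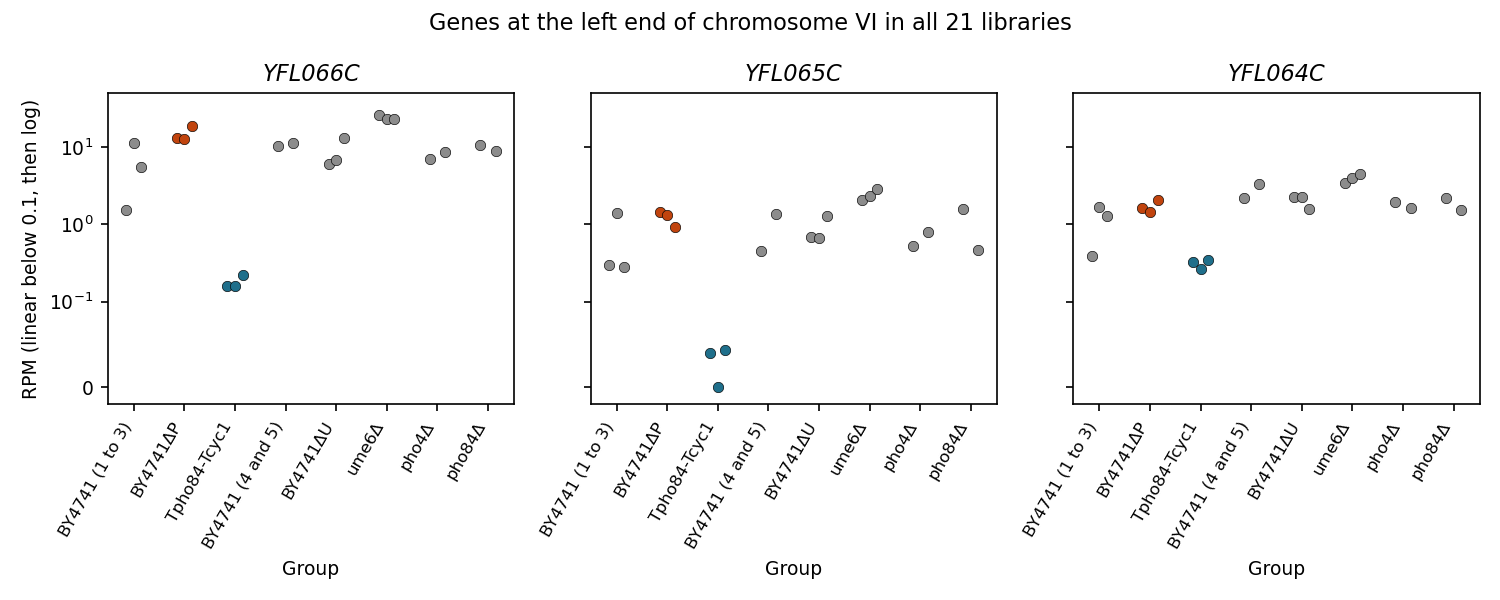
RPM of YFL066C, YFL065C and YFL064C in each of the 21 libraries by group, on an axis that is linear below 0.1 and logarithmic beyond. Points are single libraries, and the 3 Tpho84-Tcyc1 libraries lie below all 18 others in each panel, by a small gap for YFL064C.

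LSR1, the U2 spliceosomal RNA, was read at 9.11, 11.3 and 12.7 RPM in ΔP and 4.16, 5.78 and 5.04 in Tpho84-Tcyc1. Every ΔP library was above every Tpho84-Tcyc1 library, and the log2 difference was 1.00 (SE 0.16, adjusted p = 0.0357, limma), a call lost without ΔP 3 or any Tpho84-Tcyc1 library. It was 1 of 12 non-coding RNAs tested that was called, where 0.209% of all genes were called higher. All 12 differences were positive with a median of 0.23, where 2830 of all 5735 were positive. The medians of ΔP 1, 2 and 3 relative to the Tpho84-Tcyc1 mean were 0.161, 0.533 and 0.071, and without ΔP 2 the median difference was 0.08. SCR1, which encodes the 7SL RNA of protein targeting, was read at 28.7, 12.5 and 6.26 RPM in ΔP and 5.27, 5.31 and 7.71 in Tpho84-Tcyc1, overlapped and was not called. The libraries were made from purified mRNA, and the part of carried-over non-coding RNA in these values was not tested.

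RTC3 and SOL4, both on the list of general stress genes, were the genes called lower in ΔP. RTC3 (YHR087W, chrVIII:280820-281155), linked to RNA metabolism and stress, was read at 45.3, 46.3 and 40.3 RPM in ΔP and 73.5, 65.1 and 75.1 in Tpho84-Tcyc1. No ΔP library reached the lowest Tpho84-Tcyc1 library, and the log2 difference was -0.68 (SE 0.10, adjusted p = 0.0307, limma). SOL4 (YGR248W, chrVII:985972-986739), a 6-phosphogluconolactonase gene of the pentose phosphate pathway, was read at 15.7, 15.3 and 18.9 RPM against 29.2, 25.8 and 27.4. It did not overlap either, with a log2 difference of -0.70 (SE 0.11, adjusted p = 0.0409, limma). Each call was lost without any 1 of the Tpho84-Tcyc1 libraries, that of RTC3 also without ΔP 3 and that of SOL4 without ΔP 1.

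Of the 42 general stress genes, RTC3 and SOL4 were called lower, where 0.0349% of all genes were. In this list 36 differences were negative and the median was -0.25, where 2905 of all 5735 differences were negative. Libraries of the strains did not overlap for 18 genes lower in ΔP (42.9%, against 7.71% of all genes). HSP12, a membrane-protecting heat shock gene, was read at 388, 200 and 200 RPM in ΔP and 506, 385 and 358 in Tpho84-Tcyc1; ΔP 1 overlapped the other strain, and the difference of -0.72 (SE 0.24) was not called (adjusted p = 0.547, limma). Without ΔP 2, 9 members were called lower, where 2.06% of all genes were, and the median was -0.21.

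None of the 37 nuclear genes of the respiratory chain was called, with 35 negative differences and a median of -0.21. For 14 of them the strains did not overlap, all lower in ΔP (37.8%, against 7.71% of all genes). QCR8, a subunit of cytochrome bc1, was read at 77.3, 104 and 64.5 RPM in ΔP and 104, 126 and 107 in Tpho84-Tcyc1; ΔP 2 came close to the other strain, and the difference of -0.48 (SE 0.16) was not called (adjusted p = 0.551, limma). Without ΔP 2, 12 members were called lower, among them QCR8, QCR10 and INH1, where 2.06% of all genes were. These named genes are short, with coding lengths of 285, 297 and 258 bases. In genes up to 500 bases the library medians were -0.146, 0.122 and -0.234 in ΔP 1, 2 and 3. Calls without ΔP 2 were not tested with a trend on coding length removed. Mitochondrial ribosomal protein genes had 46 of 51 negative differences and a median of -0.09, with 0 called. The 8 listed genes of the mitochondrial genome had 0 reads in all 6 libraries.

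Differences also varied with gene length, and not in the same way in each ΔP library. Genes with a coding length up to 500 bases had a median difference of -0.0853, those of 500 to 1000 bases -0.0331, those of 1000 to 2000 bases -0.0108 and longer ones 0.0767. From the shortest to the longest class, the library medians relative to the Tpho84-Tcyc1 mean went from -0.146 to 0.197 in ΔP 1 and from -0.234 to 0.143 in ΔP 3, but from 0.122 to -0.115 in ΔP 2. The median coding length was 462 bases for the respiratory chain and 974 for the general stress genes. With a trend on coding length taken out of each library, the respiratory median was -0.16 with 34 of 37 negative and the stress median -0.22 with 35 of 42 negative, while RTC3 differed by -0.59 and SOL4 by -0.66 and neither was called (adjusted p = 0.062 and 0.063, limma). The mitochondrial ribosomal protein genes then had a median of -0.05 with 32 of 51 negative. In the same fit 16 of all 5735 genes were called higher and 3 lower. Of the 31 phosphate genes 13 were called higher, VTC1 (0.92, adjusted p = 0.00128, limma), VTC2 (0.39, 0.0435) and CTF19 (0.67, 0.0287) being added.

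**Figure D5:**
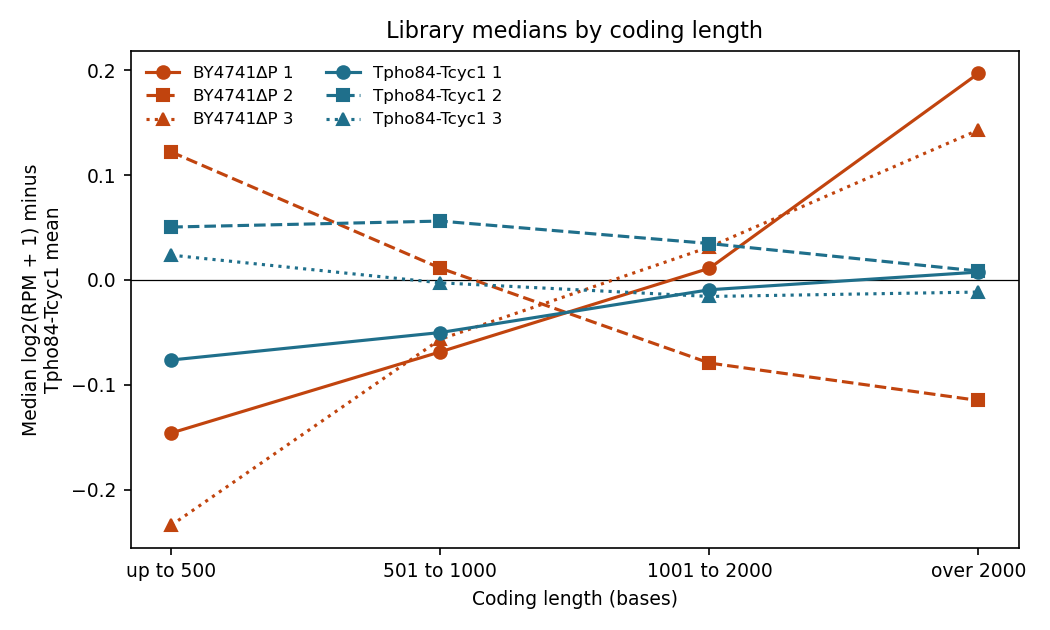
Median log2(RPM + 1) minus the Tpho84-Tcyc1 mean in 4 classes of coding length (bases), with 1 line for each of the 6 libraries. ΔP 1 and ΔP 3 go up from the shortest to the longest class and ΔP 2 goes down, while the Tpho84-Tcyc1 libraries stay between -0.076 and 0.056.

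With all 6 libraries and the length trend left in, the remaining lists held no called gene. In the iron regulon 19 of 25 differences were positive with a median of 0.13. The library medians relative to the Tpho84-Tcyc1 mean were -0.111, 0.0461 and 0.307 in ΔP 1, 2 and 3. FET3, the multicopper oxidase of high-affinity iron uptake, was read at 173, 143 and 277 RPM in ΔP and 107, 73.0 and 138 in Tpho84-Tcyc1; ΔP 2 stood just above the highest Tpho84-Tcyc1 library, and the difference of 0.88 (SE 0.26) was not called (adjusted p = 0.495, limma). Sulfate assimilation and methionine genes had 21 of 26 positive differences and a median of 0.09, and ribosome biogenesis genes 35 of 50 and 0.05. For ribosome biogenesis only ΔP 1 had a positive library median, with 0.258, -0.0716 and -0.0706 in ΔP 1, 2 and 3. Cytosolic ribosomal protein genes had 27 of 40 negative differences and a median of -0.07. Their medians relative to the Tpho84-Tcyc1 mean were -0.114, 0.206 and -0.202 in ΔP 1, 2 and 3. Without ΔP 2 the median difference was -0.17 and 4 of the 40 were called lower, where 2.06% of all genes were. Among 24 mating genes tested, the a-factor genes MFA1 and MFA2 had the most negative differences, MFA2 at 118, 156 and 103 RPM in ΔP and 209, 210 and 192 in Tpho84-Tcyc1. Its groups did not overlap, and the difference of -0.71 (SE 0.14) was not called (adjusted p = 0.127, limma). With the length trend removed it was -0.56 and called, 1 of 3 genes called lower in that fit (adjusted p = 0.0316, limma). Without ΔP 2, 3 mating genes were called lower, MFA1 and MFA2 among them, and 1 higher, where 2.06% and 3.8% of all genes were. Glycolysis, hexose transport, amino acid, ergosterol and histone genes had medians between -0.07 and 0.02, and 9 reference genes one of 0.000496. Zinc, inositol, unfolded protein response, cell wall, purine, early meiotic and middle sporulation genes had medians between -0.07 and 0.08, and 17 of 20 trehalose and glycogen genes had negative differences with a median of -0.12, which was 0.00403 without ΔP 2.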

How the data were processed

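The authors deposited RPM values, made from stranded mRNA libraries; HISAT2, featureCounts and edgeR are named, per the submitters' processing notes, without versions. Build, annotation and strand setting are not given in the sources used here. The table had values for 7123 features, and 4 further lines were not used here. Dividing by the RPM of 1 read gave whole reads for 100% of values within 0.01 reads. Genes reaching 1 RPM in 3 or more of the 6 libraries were tested by limma 3.58.1 (R 4.3.3) on log2(RPM + 1), with 1 mean per strain, trended variances and Benjamini-Hochberg adjustment over 5735 genes. A gene could thus be tested through 1 strain alone. The script was tested on simulated data. edgeR 4.0.16, DESeq2 1.42.0 and limma-voom ran on the recovered reads as alternatives, beside other filters, pseudocounts, scalings and sets of libraries. An exact permutation test of 3 against 3 libraries cannot go below 0.1. Names, coding lengths and 6044 matched locus tags came from build R64. The strains, members and 36 gene lists (778 of 785 symbols found) were chosen with earlier results of these data known. Named genes were PHO84, SPL2, UME6, PHO4 and KCS1, every called gene, all listed phosphate genes, the neighbours of PHO84, and up to 4 members of each other list with the largest differences and a mean of at least 3 on the log2(RPM + 1) scale; YFL065C, YFL064C, COS4, YRF1-4, YRF1-5 and the mating-type markers were named after their values were seen.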

Additional observations from a re-analysis of the deposited data

How the results depend on the processing

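SPL2, PHO12, PHO5, VTC3, VTC4, PHM6 and YFL066C were called in every alternative that tested them. So was PHO84, but it chose the strains, and its call is no support. With 1 library left out, 8 to 218 genes were called higher and 0 to 118 lower, and 7 to 14 listed phosphate genes higher, and the PHO84 difference ranged from 7.31 to 7.56. Omitting ΔP 2 gave 218 and 118 calls, omitting ΔP 1 gave 13 and 4, ΔP 3 gave 8 and 1, Tpho84-Tcyc1 1, 2 and 3 gave 8, 9 and 8 higher and 0 lower. PHO11 lost its call without ΔP 3, Tpho84-Tcyc1 1 or Tpho84-Tcyc1 3 (adjusted p 0.0511 to 0.0577, limma). PHO8, PHO81, LSR1, RTC3 and SOL4 lost theirs in 4 or more of these omissions (highest adjusted p 0.21, 0.274, 0.217, 0.236 and 0.317). DESeq2 called 33 higher and 17 lower, edgeR 12 and 1, and limma-voom 13 and 0. The fit of 9 libraries called 14 and 4, and the fit of 21 called 40 and 22. No filter and TMM scaling left 0 genes lower and 11 higher. Removing the length trend, chosen after seeing the data, called 16 and 3. The cause of these moves was not tested. Whether culture numbers pair the strains stayed undecided. Correlations of deviations were 0.155, 0.0226 and 0.163 for libraries of the same number and -0.349 to 0.202 for the others. Not every library correlated best with its own number. With the replicate block 33 genes were called higher, 12 of them listed phosphate genes, and 19 lower. Across single genes, 2502 values kept their side of the threshold, 40 lost a call, 77 gained one, 0 called values changed sign and 41 values never called did. Depth limited genes below 3 reads (0.0605 to 0.273 RPM).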

Other observations

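Some genes were read in ΔP 2 near the Tpho84-Tcyc1 level and higher in ΔP 1 and ΔP 3, and were named after their values were seen. SRO9, an RNA-binding protein gene, was read at 32.1, 11.2 and 30.5 RPM in ΔP 1 to 3 and 10.7, 8.94 and 9.81 in Tpho84-Tcyc1. DED1, a DEAD-box helicase gene needed for translation initiation, was read at 171, 84.9 and 148 RPM against 74.5, 60.6 and 77.5. RSP5, a ubiquitin ligase gene, was read at 146, 79.7 and 144 RPM against 65.9, 64.04 and 70.1, and PUF3, whose product binds mRNAs of mitochondrial proteins, at 73.4, 36.2 and 59.4 against 30.6, 27.8 and 34.0. With all 6 libraries their differences were 1.11, 0.86, 0.83 and 0.80 and none was called. Without ΔP 2 they were 1.58, 1.16, 1.11 and 1.08. These genes were picked from those called in that fit, so their calls there (adjusted p 0.000161 to 0.00268, limma) were fixed by the choice.

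Other genes, also picked after their values were seen, stood higher in ΔP 2 than in ΔP 1 and ΔP 3. COX17, a copper chaperone of cytochrome oxidase, was read at 15.03, 19.5 and 11.2 RPM in ΔP and 22.8, 26.0 and 22.6 in Tpho84-Tcyc1, and ATP18, an ATP synthase subunit, at 36.2, 60.8 and 39.0 against 62.9, 67.6 and 63.1. The ribosomal protein gene RPS25A was read at 1043, 2184 and 957 RPM in ΔP and 1544, 1748 and 1641 in Tpho84-Tcyc1, so that ΔP 2 lay above and the others below the second strain. RPS25A has a near-identical copy, and its reads are uncertain.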
